A study of Mus musculus with 10 samples.

Results

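Amyotrophic lateral sclerosis (ALS) is linked to mutations in many genes, and the 9 described here are those that act outside RNA binding, in protein quality control, membrane trafficking, the cytoskeleton and antioxidant defence: *Sod1*, *Vapb*, *Pfn1*, *Vcp*, *Ubqln2*, *Tbk1*, *Optn*, *Sqstm1* and *Fig4*. They were taken as the rows of the authors' deposited table whose gene symbol equals one of these names, and all 9 were found among 25232 listed genes. The libraries came from the spinal cord of female mice aged 90 days, with the strain labelled C57BL/6 and given in the methods as a C57BL/6J background, 5 labelled *SOD1* G93A and 5 labelled wild type (WT). The SOD1 mice carry a high copy number of a human *SOD1* transgene with the G93A change on top of their own mouse *Sod1*, and the WT mice were their littermates. By the methods, it was the lumbar cord that was dissected.

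The level of each gene is its base mean, the authors' mean over all 10 libraries of the read counts divided by DESeq2's size factors. This mean pools both genotypes, so it says how much of a transcript the tissue held and nothing about the difference between SOD1 and WT mice. The columns of the authors' own comparison were not used, and no genotype comparison is given. No spread between mice stands behind these means, so the order of 2 neighbouring genes cannot be set against replicate error. The base means of all genes sum to 22158933, which is the mean normalized total of a library. In RNA of whole tissue, fewer cells of a type and less RNA per cell cannot be told apart.

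Cells remove damaged proteins along 2 connected routes. In the ubiquitin–proteasome system, ubiquitin marks a protein, the ATPase VCP pulls marked proteins out of membranes and complexes, and shuttles such as ubiquilin-2 carry them to the proteasome. In selective autophagy, receptors such as p62 (the product of *Sqstm1*) and optineurin bind ubiquitin on the cargo and ATG8 proteins on the growing membrane, and the kinase TBK1 phosphorylates both receptors. VAPB anchors contacts of the endoplasmic reticulum with other organelles, FIG4 acts on an endosomal phosphoinositide, profilin-1 feeds actin filaments with monomers, and SOD1 removes superoxide.

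The genotype label of the mutant mice names a single residue, and the mouse coding sequence around the matching codon is shown because the listed *Sod1* is the mouse gene and not the transgene. The stretch covers bases 256 to 306 of the *Sod1* coding sequence in GENCODE M21 (GRCm38), with the codon for residue 93 in capitals. Residue 93 is counted without the initiator methionine, and the codon is number 94 when the methionine is counted.
Sod1: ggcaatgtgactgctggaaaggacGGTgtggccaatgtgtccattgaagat
The capital codon encodes glycine (G) in the mouse reference. The table holds 1 row for *Sod1* and none for a human gene, and reads of the human transgene that aligned to the mouse gene would be counted in that row. Their number was not tested.

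*Fig4*, *Optn* and *Tbk1* had the lowest base means of the 9, and *Sqstm1* had the highest base mean, 10103, followed by *Vcp* with 7261 and *Vapb* with 5539. *Ubqln2* and *Sod1* lay close together with base means of 3985 and 3849. The base mean was 1707 for *Pfn1* and 1108 for *Tbk1*. *Fig4* and *Optn* had the lowest base means, 859 and 838, so that the range over the 9 genes was 12.1-fold. Because a long transcript yields more reads than a short one at the same abundance, levels of different genes were compared per kb of exon.

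Per kb of exon, *Sod1* moved from the fifth place to the top, with a base mean of 6005 per kb over 641 exon bases. The *Sqstm1* base mean was 3579 per kb, that of *Vcp* 2190 per kb and that of *Pfn1* 1664 per kb. The products of these 4 genes differ in activity, being an antioxidant enzyme, an autophagy receptor, a segregase and an actin-binding protein. *Ubqln2* followed with a base mean of 1192 per kb and *Vapb*, whose exons span 7029 bases, with 788 per kb. The level of *Tbk1* was 367 per kb, that of *Optn* 321 per kb and that of *Fig4* 262 per kb. The ratio of the highest to the lowest level per kb was 22.9. The largest step in this order was the one between *Vapb* and *Tbk1*, a ratio of 2.15, and the smallest the one between *Tbk1* and *Optn*, a ratio of 1.14.

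**Figure D1:**
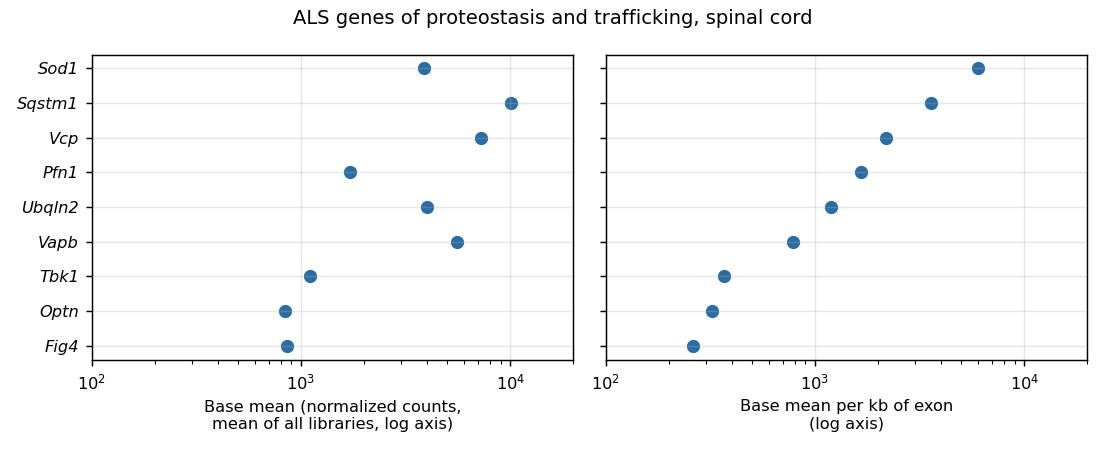
Base mean (left, normalized counts, mean of all libraries) and base mean per kb of exon (right) of the 9 genes, both on log axes, with 1 point per gene and no error bars because the mean column carries none. *Sqstm1* leads on the left with 10103 and *Sod1* on the right with 6005 per kb.

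No filter on low values was applied, and all 9 genes lay above the median of the 20399 genes that were listed above 0 and had an exon length, which was 83.4 per kb. *Sod1* was number 101 in the order of all these genes. *Sqstm1* was number 235 and *Vcp* number 497 in the same order. The superoxide dismutase, the receptor and the segregase were thus among the abundant transcripts of the cord. *Pfn1*, *Ubqln2* and *Vapb* lay at percentiles 96.5, 94.7 and 91.0 of the level per kb. Above the 90th percentile, which was 722 per kb, lay 6 of the 9 genes. The other 3, *Tbk1*, *Optn* and *Fig4*, stood at percentiles 79.3, 76.8 and 72.6. *Fig4* was still 3.14 times the median gene. Together the 9 genes held 0.159% of the summed base means.

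**Figure D2:**
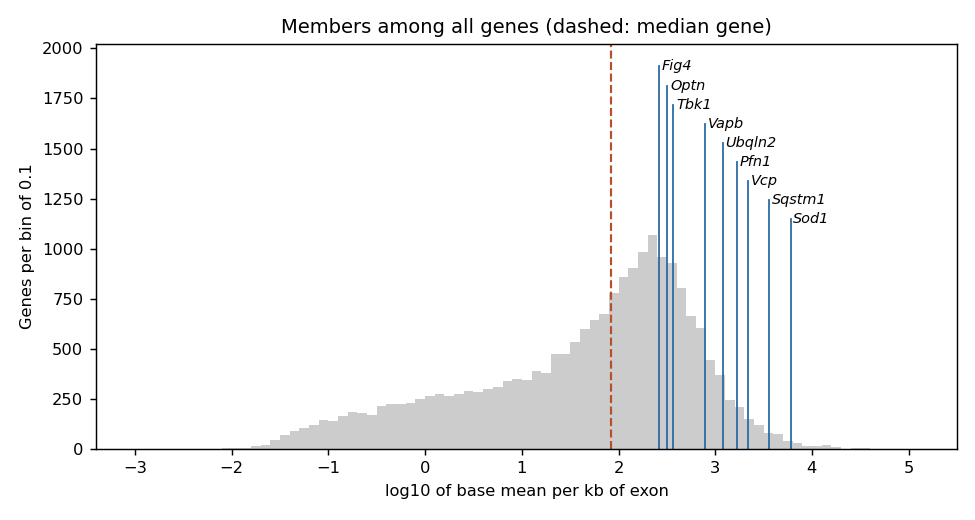
Distribution of the level per kb over all genes with a level above 0 (grey bars, genes per bin on a log10 scale) with the 9 genes as blue lines, whose heights only separate the names. All 9 lie to the right of the median gene at 83.4 per kb (dashed), from *Fig4* at 262 to *Sod1* at 6005 per kb.

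*Sod1* encodes the copper and zinc superoxide dismutase of the cytosol and lies on chromosome 16 of GRCm38 (plus strand) from 90220754 to 90226329. Its mitochondrial counterpart *Sod2* had a base mean of 3414, close to that of *Sod1*, but its exons are longer, and its level per kb was 583. The ratio of *Sod1* to *Sod2* was therefore 10.3 per kb of exon and 1.63 per kb of coding sequence. For the latter, here and below, the base mean of the whole gene was divided by its coding length. Reads of untranslated exons thus stayed in the value. The secreted form, *Sod3*, had a level of 121 per kb. *Ccs*, the chaperone that loads copper onto SOD1, had a level of 382 per kb, and *Sod1* was 15.7 times as high. That ratio was 16.8 per kb of coding sequence. It was smaller with all annotated transcripts, where *Sod1* was at 970 per kb and *Ccs* at 229 per kb.

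The level per kb of *Sod1* depended on the transcripts that define its length. Besides the coding transcript of 641 bases, the full annotation holds a second one that keeps introns, and with both the exons of *Sod1* cover 3970 bases. Its level was then 970 per kb, and *Sod1* was number 4 of the 9. In addition, 23 of the 542 windows of 100 bases in the coding transcript, the length of 1 read, recur base for base in the processed pseudogene *Gm8566* on chromosome 6. Reads from such windows have 2 equally good origins, and only uniquely mapped reads were counted. The windows form 1 stretch of 122 bases, from base 37 to base 158 of the coding sequence, of which the first 60 are shown.
Sod1 and Gm8566: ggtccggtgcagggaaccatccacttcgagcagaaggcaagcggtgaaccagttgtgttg
The windows make up 4.24% of all windows of the transcript.

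*Vcp* encodes the hexameric ATPase of the ubiquitin system and lies on chromosome 4 (minus strand) from 42979963 to 43000507. More than any other of the 9 genes, it shares sequence with a copy. Of the 3217 windows of 100 bases in its transcript, 1759 (54.7%) occur in a transcript of another gene, and 1656 of these occur in the processed pseudogene *Vcp-rs* on the X chromosome. The coding sequence and *Vcp-rs* share 6 stretches, the longest of 794 bases, from base 691 to base 1484 of the coding sequence. Its first 60 bases are shown because the same read could come from either locus.
Vcp and Vcp-rs: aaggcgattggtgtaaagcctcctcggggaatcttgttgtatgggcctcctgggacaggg
With the same base mean divided by the number of windows without a second match, the value for *Vcp* was 4980 per kb. It was 2190 per kb over all exon bases. Reads in the unshared windows were not counted apart. How many reads the unique-mapping step removed was not tested, and a pair of reads can be placed by 1 mate alone. The windows left out include 161 that *1700022I11Rik*, a gene on the opposite strand, also holds. Its exons overlap 10.6% of the *Vcp* exon bases at the same place in the genome, so such a window has a second locus only where *Vcp-rs* holds it too. The base mean of *1700022I11Rik* was 2.40.

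The 33 genes listed as VCP cofactors were all detected, with base means of at least 10, and 29 of them lay above the median gene. Their median was 330 per kb of exon, and none reached the 2190 per kb of *Vcp* itself on that scale. Per kb of coding sequence *Svip*, with 11532 per kb, and *Ubxn2a*, with 3030 per kb, lay above *Vcp* with 3003 per kb. The highest were *Ubxn1*, which binds VCP through a UBX domain, with 1119 per kb and *Nsfl1c*, the p47 cofactor, with 1084 per kb. The lowest were *Derl3* with 25.2 per kb and *Ubxn10* with 21.0 per kb. *Ufd1* and *Nploc4*, which together recruit VCP to ubiquitin chains, had levels of 631 and 454 per kb.

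*Ubqln2* encodes ubiquilin-2, which binds ubiquitin with one end and the proteasome with the other, and lies on the X chromosome (plus strand) from 153498227 to 153501570. There were 3 ubiquilin genes with base means of at least 10. *Ubqln1* had the highest level, 1482 per kb, *Ubqln2* followed with 1192 per kb and *Ubqln4* with 783 per kb. *Ubqlnl* was listed at 0. The order of the first 3 was the same per kb of coding sequence, where *Ubqln2* was 0.665 times *Ubqln1* and 1.43 times *Ubqln4*. The coding sequences of *Ubqln2* and *Ubqln1* were identical at 66.8% of aligned positions, the highest identity among the 10 pairs aligned. Their longest common stretch is shown because it is shorter than a read.
Ubqln2 and Ubqln1: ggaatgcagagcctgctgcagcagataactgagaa
It holds 35 bases, from base 1144 to base 1178 of the *Ubqln2* coding sequence. Of the 3245 windows of 100 bases in *Ubqln2*, 0 recurred in an annotated transcript of another gene.

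Among 15 genes of ubiquitin and the delivery to the proteasome, 14 lay above the median gene, with a median of 1277 per kb. *Ubb*, a polyubiquitin gene, was the highest with 10731 per kb, followed by *Uchl1*, a neuronal deubiquitinase, with 10087 per kb and *Rps27a*, a ubiquitin fused to a ribosomal protein, with 4132 per kb. *Ddi2* and *Usp14* were the lowest, with 35.2 and 678 per kb. *Rad23b*, a shuttle of another family, was at 881 per kb of exon, below *Ubqln2*, but per kb of coding sequence it was above *Ubqln2*, at 2690 against 2082 per kb.

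*Sqstm1* encodes p62, the receptor that gathers ubiquitinated proteins into bodies for autophagy, and lies on chromosome 11 (minus strand) from 50199366 to 50210827. Its level of 3579 per kb was 3.91 times that of *Nbr1*, a receptor of the same architecture, at 915 per kb. The exons of *Sqstm1* overlap those of *Mrnip* on the opposite strand over 580 bases, 20.5% of the *Sqstm1* exon bases. *Mrnip* had a base mean of 199 against 10103 for *Sqstm1*. The libraries were stranded, the strand setting of the counting is not given in the sources used here, and without it reads of the overlap cannot be told apart.

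*Optn* encodes optineurin, a receptor for ubiquitinated mitochondria and bacteria, and lies on chromosome 2 (minus strand) from 5020642 to 5064051. Its level of 321 per kb was 2.24 times that of *Ikbkg*, the gene of the related protein NEMO, at 143 per kb. That order turned per kb of coding sequence, where *Optn* was 0.588 times *Ikbkg*. *Sqstm1* stood at 3579 per kb, on the same scale, and *Optn* at 321 per kb. The 18 other receptors of selective autophagy had a median of 826 per kb, and 17 of them lay above the median gene. The highest were *Rtn3*, a receptor for tubules of the endoplasmic reticulum, with 5542 per kb, *Fkbp8*, on mitochondria, with 3060 per kb and *Bnip3*, also on mitochondria, with 1338 per kb. The lowest were *Bcl2l13* with 179 per kb and *Stbd1*, which binds glycogen, with 36.2 per kb. *Optn* therefore lay below the median of these receptors and *Sqstm1* above it.

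*Tbk1* encodes the kinase that phosphorylates optineurin and p62 and lies on chromosome 10 (minus strand) from 121546455 to 121586787. At 367 per kb it was 15.5 times its closest relative *Ikbke*, which had a level of 23.7 per kb and a base mean of 78.3. The 3 adaptors that bind TBK1 had levels on both sides of it. *Tbkbp1* was at 545 per kb and *Azi2* at 381 per kb, and *Tank* was at 118 per kb. With all annotated transcripts *Azi2* lay just below *Tbk1*, at 279 against 283 per kb. The coding sequences of *Tbk1* and *Ikbke* were identical at 58.2% of aligned positions. No window of *Tbk1* recurred in an annotated transcript of another gene, and the rest of the genome was not searched.

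The ATG8 proteins, which the receptors bind on the membrane, were abundant as a group. All 5 lay between 1209 per kb, the level of *Map1lc3b*, and 5904 per kb, that of *Gabarapl1*, with a median of 2168 per kb. *Map1lc3a* was at 2430 per kb, *Gabarap* at 2168 per kb and *Gabarapl2* at 1646 per kb. The place of *Map1lc3b* depended on the length. Over the longest transcript it was at 2380 per kb, above *Gabarap* and *Gabarapl2*. Per kb of coding sequence it was at 12074, below only *Gabarapl1* at 30612. With all annotated transcripts it was again the lowest, at 834 per kb. The 26 genes that start and extend the autophagosome had a lower median of 307 per kb, and 25 of them were above the median gene. *Atg9a*, a membrane protein of the seed vesicles, was the highest with 727 per kb, before *Atg13* with 614 per kb and *Wipi2* with 507 per kb. The lowest were *Atg14* with 120 per kb and *Atg4a* with 82.1 per kb. The kinase *Tbk1* and the receptor *Optn* had levels within the range of this list, and *Sqstm1* lay above all 26.

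*Vapb* encodes an anchor of the endoplasmic reticulum membrane that binds lipid transfer proteins, and lies on chromosome 2 (plus strand) from 173737511 to 173784336. It had a level of 788 per kb, and its paralog *Vapa* had 579 per kb. The ratio of *Vapb* to *Vapa* was 1.36 per kb of exon and 2.91 per kb of coding sequence, since most of the *Vapb* transcript is untranslated. The coding length of *Vapb* is 729 bases. Per kb of coding sequence *Vapb* was number 3 of the 9 genes, with 7598 per kb, and per kb of exon number 6. The 3 other genes with the same domain were lower, from 165 per kb for *Mospd2* to 207 per kb for *Mospd3*. The coding sequences of *Vapb* and *Vapa* were identical at 64.5% of aligned positions, and no window of *Vapb* recurred in an annotated transcript of another gene.

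Of 19 genes listed as possible VAPB partners at membrane contacts, 18 were matched to a row, and 16 of these lay above the median gene. Binding to VAPB was not tested here, and the list may hold genes without it. Their median was 360 per kb. The highest were *Pitpnm1*, which moves phosphatidylinositol between membranes, with 919 per kb, *Tmed4* with 892 per kb and *Ptpn5* with 826 per kb. *Rmdn3*, the mitochondrial partner that joins VAPB in contacts with mitochondria, was at 526 per kb. *Vps13a*, a lipid channel, was at 83.2 per kb and *Osbpl3* at 42.4 per kb, the lowest of the list. *Cert1* was not matched to a row. Its own synonyms were not searched, so it may be listed under another name.

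*Fig4* encodes a phosphatase of phosphatidylinositol 3,5-bisphosphate and lies on chromosome 10 (minus strand) from 41188172 to 41303260. It works in a complex with the kinase PIKfyve and the scaffold VAC14. *Fig4* and *Vac14* had nearly the same level, 262 and 280 per kb, and *Pikfyve* had 96.4 per kb. Per kb of coding sequence *Fig4* was 0.861 times *Vac14* and 1.81 times *Pikfyve*. With all annotated transcripts *Vac14* was at 124 per kb and *Fig4* at 262 per kb, so that their order turned. The other phosphatases with the same SAC domain were higher than *Fig4*, at 1192 per kb for *Synj1*, which acts on synaptic vesicles, 976 per kb for *Sacm1l*, 822 per kb for *Inpp5f* and 318 per kb for *Synj2*. Of the windows of *Sacm1l*, 49.2% recur in a transcript of *Slc6a20b* on either strand, so the level of *Sacm1l* is uncertain. Whether these genes overlap in the genome was not examined.

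*Pfn1* encodes the profilin found in most cells and lies on chromosome 11 (minus strand) from 70651850 to 70654644. In the spinal cord *Pfn2*, the profilin of neurons, was the higher of the pair, with 2771 per kb against 1664 per kb for *Pfn1*. The ratio of *Pfn1* to *Pfn2* was 0.600 per kb of exon and 0.174 per kb of coding sequence. *Pfn4* had a level of 40.5 per kb, and *Pfn3* had a base mean of 0.401. All 446 windows of *Pfn3* recur in a transcript of *Slc34a1* on either strand, so the level of *Pfn3* is uncertain. The coding sequences of *Pfn1* and *Pfn2* have 420 bases each and were identical at 61.7% of positions. With all annotated transcripts the exons of *Pfn1* cover 2405 bases in place of 1026, and its level was 710 per kb.

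**Figure D3:**
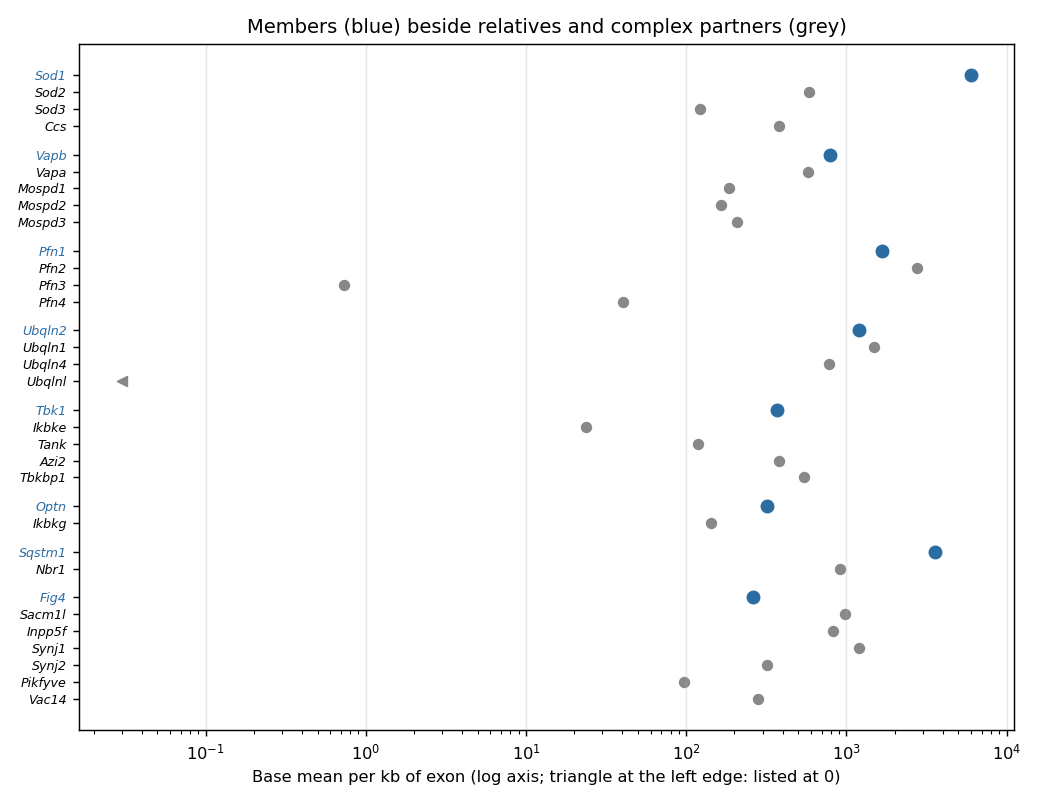
Level per kb of exon (log axis) of each of the 9 genes (blue) and of its relatives or complex partners (grey), 1 point per gene shown in 8 groups, *Vcp* having none here. *Sod1*, *Vapb*, *Optn* and *Sqstm1* lead their groups, *Pfn1*, *Ubqln2*, *Tbk1* and *Fig4* do not, and *Ubqlnl* is listed at 0.

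Actin and the proteins that turn it over were abundant beside *Pfn1*. Of 18 such genes 16 lay above the median gene, and their median was 1085 per kb. *Actb* was at 9211 per kb, *Tmsb4x*, which holds actin monomers, at 7025 per kb and *Cfl1*, which severs filaments, at 5404 per kb. The formins *Diaph2* and *Diaph3*, which elongate filaments from profilin-bound actin, were the lowest with 39.2 and 9.48 per kb.

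The 32 other ALS-linked genes examined had a median of 378 per kb, and the median of the 9 genes was 1192 per kb. Genes of the axon led that list, with *Kif5a*, a kinesin motor, at 8227 per kb, *Nefh*, the heavy neurofilament chain, at 6192 per kb and *Tuba4a*, a tubulin, at 3594 per kb. *Ang*, a secreted ribonuclease, was at 27.5 per kb and *Ccnf*, a cyclin of ubiquitin ligases, at 12.8 per kb. Of the 32 genes, 28 lay above the median gene.

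**Figure D4:**
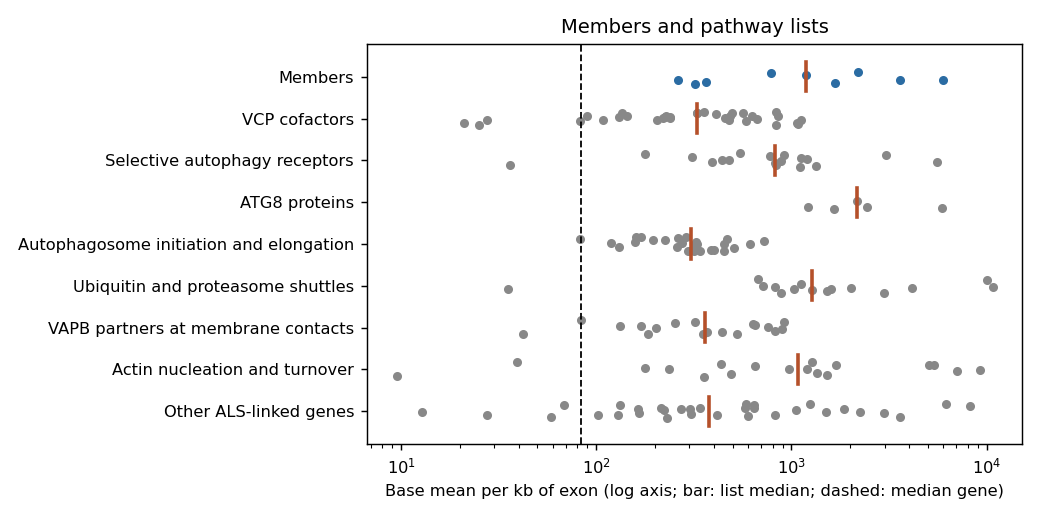
Level per kb of exon (log axis) of the 9 genes (blue) and of the genes of 8 lists (grey), 1 point per gene, with the median of each list as a bar and the median gene, 83.4 per kb, as a dashed line; points are spread vertically only for legibility. The ATG8 proteins have the highest list median, 2168 per kb, and that of the genes that start and extend the autophagosome is 307 per kb.

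The order within the 9 genes was the same with the longest transcript and with windows without another match as the length, and it changed with the coding sequence and with all annotated transcripts. *Tbk1*, *Optn* and *Fig4* remained the lowest 3 under every length tried. Per kb of coding sequence, *Sod1* (8331), *Sqstm1* (7619) and *Vapb* (7598) lay close together, before *Pfn1* (4065) and *Vcp* (3003). With all annotated transcripts, *Sqstm1* led with 3010 per kb and *Vcp* followed with 1497 per kb.

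**Figure D5:**
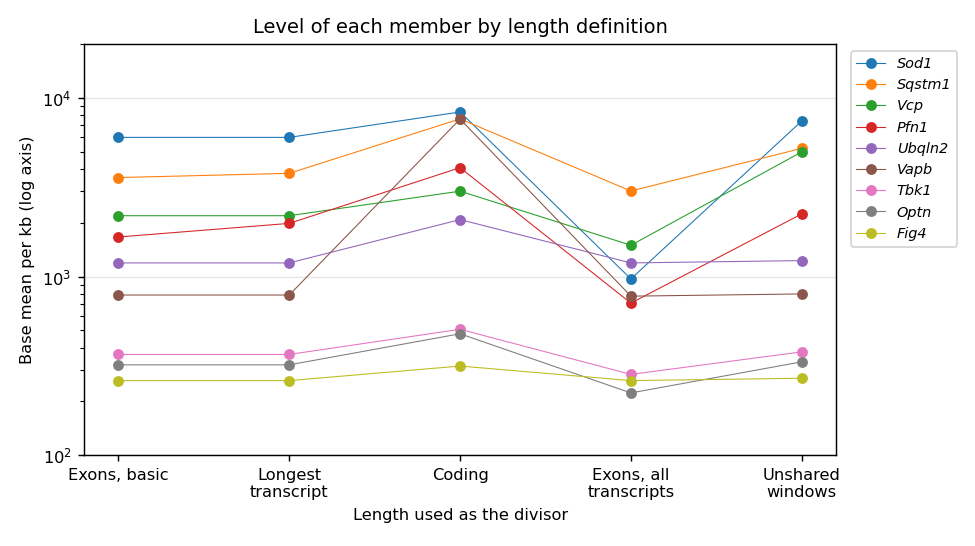
Level per kb (log axis) of the 9 genes with 5 definitions of the length, from left to right the exons of the basic annotation, the longest transcript, the coding sequence, the exons of all annotated transcripts, and the windows of 100 bases of 1 transcript without a match in another gene's transcript; thin lines join the values of 1 gene. With all transcripts as the length, *Sod1* falls from 6005 to 970 per kb. *Vapb* rises to 7598 per kb with the coding length, and *Vcp* to 4980 per kb with the number of unshared windows. The base mean divided is the same throughout, and no reads were counted over these parts alone.

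The labelled tissue was checked against markers. Oligodendrocyte genes had the highest median level of these lists, with members from 3138 per kb for *Mog* to 39347 per kb for *Mbp*, and neuronal genes the next, from 711 per kb for *Rbfox3* to 26433 per kb for *Snap25*. Astrocyte genes lay between 466 and 13824 per kb, microglial genes between 110 and 1614 per kb, precursor genes of oligodendrocytes at up to 153 per kb (*Pdgfra*) and endothelial genes between 112 and 501 per kb. Of the 6 motor neuron genes, *Prph* was the highest with 764 per kb and *Mnx1* the lowest with 16.6 per kb, and *Chat*, the enzyme of acetylcholine synthesis, was at 257 per kb. The 4 *Hox* genes of caudal cord segments were all detected, from 67.9 per kb for *Hoxc9* to 256 per kb for *Hoxc10*. Among forebrain genes, *Tbr1* and *Emx1* had base means of 3.60 and 0.993, and *Neurod6* one of 78.9. The Schwann cell gene *Prx* was at 86.8 per kb, the muscle genes *Acta1*, *Ckm* and *Myh1* at 174, 39.2 and 14.6 per kb. The globin genes *Hba-a1* and *Hbb-bs* were listed at 0. Only uniquely mapped reads were counted, and sequence that globin genes share with other genes was not examined. These zeros therefore do not show that the tissue was free of blood. The 9 genes are not markers of 1 cell type, and the cell types behind their levels were not tested.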

How the data were processed

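RNA of 5 *SOD1* G93A and 5 WT female mice was sequenced, and groups were taken from the sample titles. According to the methods and the submitters' processing notes, the authors filtered reads with Fastp, aligned them to mm10 with HISAT2 2.1.0, assigned uniquely mapped reads to genes with featureCounts 2.0.2 and compared the groups with DESeq2. The annotation and the strand setting are not given in the sources used here. The signal used is the base mean of the deposited table, which the authors computed as the mean over all libraries of counts divided by size factors. The other columns hold the authors' comparison of the genotypes (log2 fold change, its standard error, Wald statistic and p-values) and were not used. Values of single libraries were not analysed here, so depth, spread between mice and a test of genotype could not be computed.

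Levels were divided by the union of exons in the basic set of GENCODE M21 (GRCm38, the build of mm10), matched by symbol for 24355 of 25232 genes. For the 108 symbols that name several gene models, 1 model was kept, protein-coding first. Alternatives were the longest transcript, the coding length of GENCODE (no RefSeq protein was used), no scaling, other sets of genes, and, added after the data were seen, all annotated transcripts and windows of 100 bases found in no other gene's transcript on either strand. Windows were taken from 1 transcript per gene and are fewer than its bases, which raises short genes most, and for *Sqstm1* that transcript was shorter than the union of exons. The basic set was chosen after lengths and base means had been seen. Coding sequences were aligned globally with Biopython 1.88, and identity is per alignment column. The members and lists were chosen with earlier results of these data known. All 9 members, their relatives and, in each list, the 3 highest and 2 lowest genes are named, except items that are not reported here; *Ufd1*, *Nploc4*, *Rad23b*, *Svip*, *Ubxn2a*, *Rmdn3*, *Map1lc3a*, *Gabarap* and *Gabarapl2* were added after their values were seen. On simulated counts, averaging after division by size factors was checked for recovery of the known means. Estimate and truth were divided by the same length there, so the choice of length was not tested. Python 3.11.15, numpy 2.4.6, pandas 2.3.3 and matplotlib 3.10.9 were used.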

Additional observations from a re-analysis of the deposited data

How the results depend on the processing

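All 9 genes lay above the median gene under each of the 5 alternatives for the length and the genes compared. The member led 4 of 8 groups of relatives with the longest transcript or all annotated transcripts and 3 of 8 per kb of coding sequence, and 8 of 8 lists had a median above the median gene under each alternative tried. The median level of the 9 genes was 1192 per kb, against 3003 per kb of coding sequence, 777 per kb with all annotated transcripts, 1228 per kb over windows without another match and 3849 without length scaling (a base mean). The ratio of the highest to the lowest gene, 22.9, was 26.4 with coding length, 12.1 without scaling, 13.5 with all annotated transcripts and 27.5 over windows without another match. Of 45 places in the order of the 9 genes (9 under each of 5 alternatives), 26 were as in the order per kb of exon and 19 were not. The divisor is the only thing that changes between these values. No paired analysis was possible because the deposited mean pools all libraries, and leaving out each replicate in turn was not run for the same reason. The depth of single libraries is unknown, so no interval is given for any level.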
